A study of Phaseolus vulgaris with 12 samples.

Results

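The response to cold was described in true leaves of the common bean (Phaseolus vulgaris) variety 120, which the submitters class as cold tolerant. It was read from 6 poly(A)-selected RNA libraries of this variety, 3 from the cold group and 3 from the control group, within a series of 12 libraries. Of the 22542 loci in the table, 13550 (60.1%) had at least 1 FPKM (fragment counts scaled by transcript length and library total) in 3 or more of the 6 libraries and were tested. Of the 8992 loci left out, 1295 were listed at 0 in each of the 6 libraries. Plants of the cold group of 120 were kept on a culture rack under 12 h of daily light and then spent 3 days at 4 °C in an incubator with the same hours of light. Plants of the control group of 120 received no cold. The temperature of the rack, the age of the plants and the hour of sampling are not given in the sources used here. Cold and the change of place, from rack to incubator, cannot be told apart. Each variety had 3 pots with 4 seeds for each treatment, and nothing ties a library to a pot or plant, so the replicate error behind every p-value here is that between libraries and may be only technical. The same groups of variety 093, classed as cold sensitive, entered the fit and were used to test where the response of 120 differed.

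A plant that meets low but non-freezing temperature rebuilds its leaf metabolism over days, a process known as cold acclimation. Light is still absorbed in the cold while the enzymes of carbon fixation and sucrose export slow down, so the leaf has to balance excitation of the photosystems against a reduced demand for electrons. In Arabidopsis, the CBF/DREB transcription factors rise within hours of cooling and turn on cold-regulated (COR) and late embryogenesis abundant (LEA) proteins, and soluble sugars such as sucrose and raffinose accumulate. Cold also slows translation, RNA unfolding and protein folding, and the machinery for each is known to respond to temperature. Common bean is a chilling-sensitive species of tropical and subtropical origin. Gene names below are those the deposited table gives, most of them names of Arabidopsis relatives, and the roles stated are known for the proteins of that name in Arabidopsis or in plants at large.

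The 6 libraries separated by treatment. Across tested loci, Pearson's r of log2(FPKM + 1) lay between 0.936 and 0.974 within the cold group, between 0.955 and 0.976 within the control group, and between 0.480 and 0.548 across groups, with loci not being independent. Read totals per library are not among the values; judged by the spacing of the lowest FPKM values, the 6 libraries had depths within a factor of 1.39 of each other. The libraries were of leaf: 54 of 61 green mesophyll marker loci (photosystem, light-harvesting and Rubisco genes) passed the filter, and 7 of 14 xylem and 8 of 39 cotyledon and seed marker loci did. Cold library 3 lay nearest to the control group in 46.7% of all called loci, against 24.7% for cold library 1 and 28.6% for cold library 2, and values per library are therefore given throughout. Leaving it out gave 4029 called rises and 2737 called falls, and leaving out any other of the 6 gave 3978 to 4045 and 2622 to 2709, beside 4022 and 2696 with all of them.

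Cold changed the transcript level of about every other tested locus. A locus was called when limma's moderated test, adjusted by Benjamini-Hochberg over all 13550 loci, gave p under 0.05 and the log2 change was at least 1 in either direction. Standard errors (SE) come from that fit, which pools the spread of all 4 groups, so a locus that varied in 093 has a larger SE than its values in 120 show. By this rule 6718 loci were called (49.6%), 4022 of them higher under cold (29.7% of those tested) and 2696 lower (19.9%). These 3 percentages are the background for every group of loci below, together with the median log2 change over all tested loci, 0.20. The excess of rises depended on the scaling between libraries. Median-ratio scaling moved the median by -0.20 and gave 3462 rises and 3191 falls, and quantile normalization moved it by -0.26 and gave 3298 rises and 3390 falls. Of the called rises 1781 had a log2 change of at least 2 and 34 of at least 6, and of the called falls 1032 and 10 reached those sizes. The ranges of the cold and control libraries did not overlap at 10218 loci (75.4% of those tested) and at 6662 of the 6718 called. The plot of log2 change against level shows both groups of changes and where the photosynthesis and ribosome loci fall.

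**Figure D1:**
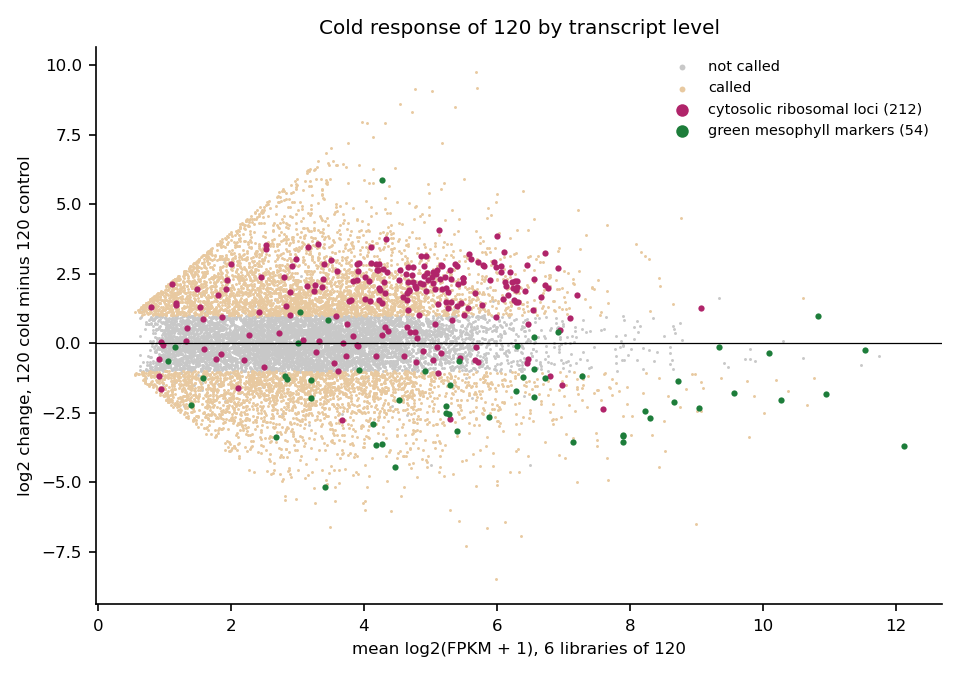
Log2 change of FPKM + 1, 120 cold minus 120 control (vertical axis), against the mean log2(FPKM + 1) of the 6 libraries (horizontal axis) for the 13550 tested loci. Grey points were not called, pale points were called, and the cytosolic ribosomal loci and the green mesophyll marker loci are drawn in colour; 151 of 212 ribosomal loci were called higher and 36 of 54 mesophyll loci lower.

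Transcript abundance was spread over more loci under cold. The 10 most abundant loci of the cold group held 6.53, 5.91 and 6.91% of the summed FPKM of the cold libraries, and the 10 most abundant loci of the control group held 14, 13.2 and 14.2% of that of the control libraries. For the top 100 loci the shares were 20.8, 21.0 and 21.1% in the cold libraries and 35.5, 34.4 and 36.1% in the control libraries. Rubisco activase (Phvul.001G234300), the chaperone that clears inhibitors from the active site of Rubisco, was the most abundant transcript of the control group, with 1334, 1369 and 1044 FPKM under cold, against 16628, 14035 and 17332 FPKM in control. Its lowest control library stood far above its highest cold library. Among described loci the highest mean level under cold was that of a Rubisco small chain (Phvul.004G073450), with 4252, 1803 and 2689 FPKM under cold, against 2370, 4187 and 3464 FPKM in control, where the libraries of the groups overlapped and the log2 change of -0.25 was not called (adjusted p = 0.51). In all, 12816 to 12907 loci reached 1 FPKM in the cold libraries and 12348 to 12477 in the control libraries, and 1047 loci reached it in each cold library and no control library, against 653 in the reverse. Loci of these 2 kinds passed the filter through 1 group alone and so had to differ, and a count over a list rich in them is a description only. They are counted below for the lists in which they are many.

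Some loci were listed at 0 in one group. At 69 loci, 51 of them described, each control library was listed at 0 and each cold library had at least 1 FPKM; 20 loci, 8 described, showed the reverse. A PLAC8 family protein (Phvul.005G169200), picked here after its values were seen, had 56.7, 55.6 and 24.7 FPKM under cold and was listed at 0 in control. A copper transport protein (Phvul.006G135600) had 36.9, 19 and 22.9 FPKM under cold, and osmotin 34 (Phvul.002G155500), a defence protein of the thaumatin family that accumulates with water stress, had 16.8, 20.9 and 18 FPKM, both listed at 0 in control. In the other direction a subunit of the chloroplast signal recognition particle (Phvul.011G025300), which carries light-harvesting proteins to the thylakoid, was listed at 0 in each cold library, against 40.2, 51.9 and 54.4 FPKM in control. No fold is given for these loci, since the depth behind a listed 0 is not known.

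Genes of the photosynthetic machinery fell at most tested loci. Among loci described as photosystem II subunits 1 of 26 tested loci rose and 16 fell, among photosystem I subunits 0 of 8 tested loci rose and 6 fell, and among light-harvesting proteins 1 of 21 tested loci rose and 15 fell, with median log2 changes of -1.50, -1.79 and -2.03 beside 0.20 for all loci. Photosystem II subunit R (Phvul.005G055200), which helps hold the water-splitting complex, had 1072, 1080 and 1003 FPKM in the cold libraries, against 3754, 3645 and 3854 FPKM in the control libraries (log2 change -1.83, SE 0.222, adjusted p = 1.1e-05). The photosystem I subunit PSI-N (Phvul.002G269400), on the lumen side of the complex, had 69.2, 74.7 and 83.8 FPKM under cold, against 749, 793 and 704 FPKM in control (log2 change -3.29, SE 0.131, adjusted p = 1.6e-09). Antenna proteins, which bind the chlorophyll that gathers light, fell at both photosystems. Lhca2 of photosystem I (MSTRG.12060) had 627, 564 and 658 FPKM under cold, against 2857, 1997 and 2778 FPKM in control (log2 change -2.03, SE 0.226, adjusted p = 5.5e-06). Lhcb5 of photosystem II (Phvul.004G128200) had 231, 209.7 and 266 FPKM under cold, against 1328, 869 and 1442 FPKM in control (log2 change -2.33, SE 0.226, adjusted p = 1.7e-06). In each of these loci every control library was above every cold library. Proteins of cyclic electron flow around photosystem I and of the plastid NDH complex had a median of -2.54, and 2 of 13 tested loci rose and 8 fell. NDH-dependent cyclic electron flow 1 (Phvul.010G161300) had 5.27, 4.19 and 9.6 FPKM under cold, against 129, 254 and 156 FPKM in control (log2 change -4.63, SE 0.271, adjusted p = 2.7e-08).

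Against this trend 1 light-harvesting locus rose. The chlorophyll A-B binding family protein at Phvul.007G062000, a description that in Arabidopsis covers the early light-induced proteins, had 102, 119 and 257 FPKM under cold, against 1.8, 1.35 and 1.49 FPKM in control (log2 change 5.86, SE 0.31, adjusted p = 1.2e-08). Cold library 3 was the highest of the cold group, and the control libraries lay close together. Carriers that pass electrons on from the photosystems had smaller changes at their abundant loci. The Rieske protein of the cytochrome b6f complex (photosynthetic electron transfer C, Phvul.005G109400) had 1089, 1027 and 1299 FPKM under cold, against 2485, 2901 and 2646 FPKM in control (log2 change -1.24, SE 0.199, adjusted p = 0.00012), a fall lost with quantile normalization (log2 change -0.19, adjusted p = 0.38). Ferredoxin-NADP(+)-oxidoreductase 1 (Phvul.003G263200), which makes NADPH, had 1443, 1266 and 1205 FPKM under cold, against 1553, 2432 and 1740 FPKM in control, a log2 change of -0.53 that was under the threshold of size (adjusted p = 0.048). The second reductase locus, ferredoxin-NADP(+)-oxidoreductase 2 (Phvul.002G108000), had 54.6, 45.1 and 61 FPKM under cold, against 469, 816 and 578 FPKM in control (log2 change -3.48, SE 0.187, adjusted p = 1.3e-08). In bulk leaf samples fewer cells of a type and less RNA per cell cannot be told apart. The green mesophyll marker list as a whole, in which 2 of 54 tested loci rose and 36 fell, took 3.31 to 4.55% of the summed FPKM in the cold libraries and 11.2 to 12.1% in the control libraries. Much of the fall of that share lay at Rubisco activase, the most abundant transcript of the control group. Marker lists of other cell types moved too. Guard cell markers (4 of 7 tested, 1 higher and 1 lower) took 0.025 to 0.0296% of the summed FPKM in the cold libraries and 0.00815 to 0.00919% in the control libraries. Most of that rise lay at SLAC1 homologue 3, with 75.5, 61.5 and 69.5 FPKM under cold, against 1.27, 1.92 and 0.729 FPKM in control. The guard cell marker myb domain protein 60 fell, with 1.77, 1.23 and 1.1 FPKM under cold, against 11.4, 10.2 and 10.4 FPKM in control. Phloem markers (15 of 19 tested, 5 higher and 3 lower) took 0.042 to 0.0916% of the summed FPKM in the cold libraries and 0.0214 to 0.0297% in the control libraries. Xylem markers (7 of 14 tested, 0 higher and 4 lower) took 0.0134 to 0.0171% of the summed FPKM in the cold libraries and 0.02 to 0.0261% in the control libraries, and cotyledon and seed markers (8 of 39 tested, 2 higher and 2 lower) took 0.0483 to 0.0531% of the summed FPKM in the cold libraries and 0.0974 to 0.104% in the control libraries. Root markers (11 of 31 tested, 4 higher and 3 lower) took 0.0499 to 0.0565% of the summed FPKM in the cold libraries and 0.0429 to 0.0538% in the control libraries, with overlapping groups. Their part, and that of cell composition, in these falls was not tested.

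Carbon fixation and photorespiration fell with the photosystems. Among Calvin cycle enzymes 3 of 19 tested loci rose and 9 fell (median -0.92), and the list took 3.44% ± 0.642 of the summed FPKM in the cold libraries and 9.14% ± 0.392 in the control libraries (SD, n = 3 each). Rubisco activase alone held 16628, 14035 and 17332 of the 334151, 347092 and 350100 FPKM summed in the control libraries. Much of the fall of this share thus lay at 1 locus, and the share without it was not computed. Rubisco activase (Phvul.001G234300), whose levels are given above, fell (log2 change -3.68, SE 0.263, adjusted p = 1.3e-07). A second Rubisco small chain locus (MSTRG.4895) had 3754, 1786 and 2541 FPKM under cold, against 978, 1910 and 1160 FPKM in control, with overlapping groups and a log2 change of 0.99 (adjusted p = 0.013) just under the threshold of size. That change was 1.67 with quantile normalization, 1.25 without cold library 2 and 1.27 without control library 2, each past the threshold. Sedoheptulose-bisphosphatase (Phvul.001G240200), which commits carbon to regeneration of the Rubisco substrate, had 32.4, 29.4 and 50.5 FPKM under cold, against 927, 1294 and 1171 FPKM in control (log2 change -4.91, SE 0.222, adjusted p = 4e-09). Transketolase (Phvul.007G006600), which acts in the same part of the cycle, had 39.9, 34.1 and 52.7 FPKM under cold, against 308, 556 and 383 FPKM in control (log2 change -3.25, SE 0.213, adjusted p = 6.6e-08). These 2 enzymes had control libraries several times above any cold library. Fructose-bisphosphate aldolase 2 (MSTRG.12572) fell less, with 730.2, 631 and 922 FPKM under cold, against 3354, 3498 and 3684 FPKM in control (log2 change -2.22, SE 0.235, adjusted p = 3.7e-06). Carbonic anhydrase 1 (Phvul.004G013500), which interconverts carbon dioxide and bicarbonate, had 834, 582 and 871 FPKM under cold, against 1600, 2241 and 1790 FPKM in control (log2 change -1.31, SE 0.197, adjusted p = 7.4e-05), and was not called with quantile normalization (log2 change -0.57, adjusted p = 0.011).

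Photorespiration recovers the product of Rubisco's reaction with oxygen through chloroplast, peroxisome and mitochondrion. Of its enzymes 0 of 17 tested loci rose and 10 fell (median -1.25). Hydroxypyruvate reductase (Phvul.007G019300) of the peroxisome had 54.2, 50.4 and 38.8 FPKM under cold, against 642, 1042 and 879.5 FPKM in control (log2 change -4.12, SE 0.184, adjusted p = 3.5e-09). The mitochondrial glycine decarboxylase P-protein 2 (Phvul.001G035500) had 121, 92.3 and 92.7 FPKM under cold, against 942, 1094 and 1004 FPKM in control (log2 change -3.31, SE 0.155, adjusted p = 5.1e-09). Alanine:glyoxylate aminotransferase (Phvul.006G029100) had 431, 412 and 462 FPKM under cold, against 2425, 2334 and 2726 FPKM in control (log2 change -2.52, SE 0.185, adjusted p = 1.7e-07). For these 3 enzymes the groups did not overlap. The plot of transcript shares gives 6 such sets by library. By GO annotation the thylakoid membrane took 5.91% ± 0.29 of the summed FPKM in the cold libraries and 17% ± 0.454 in the control libraries, with 29 of 220 tested loci higher and 107 lower, and the chloroplast stroma took 6.8% ± 0.451 of the summed FPKM in the cold libraries and 17.1% ± 0.859 in the control libraries, with 55 of 360 higher and 110 lower (SD, n = 3 each), against 40 and 134 with median-ratio scaling and 42 and 131 with quantile normalization. An exact permutation test of any such share over 3 against 3 libraries cannot go below p = 0.10, the value it gave for the thylakoid, stroma, Calvin cycle and photorespiration shares and for the ribosome, proteasome and endoplasmic reticulum shares below.

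**Figure D2:**
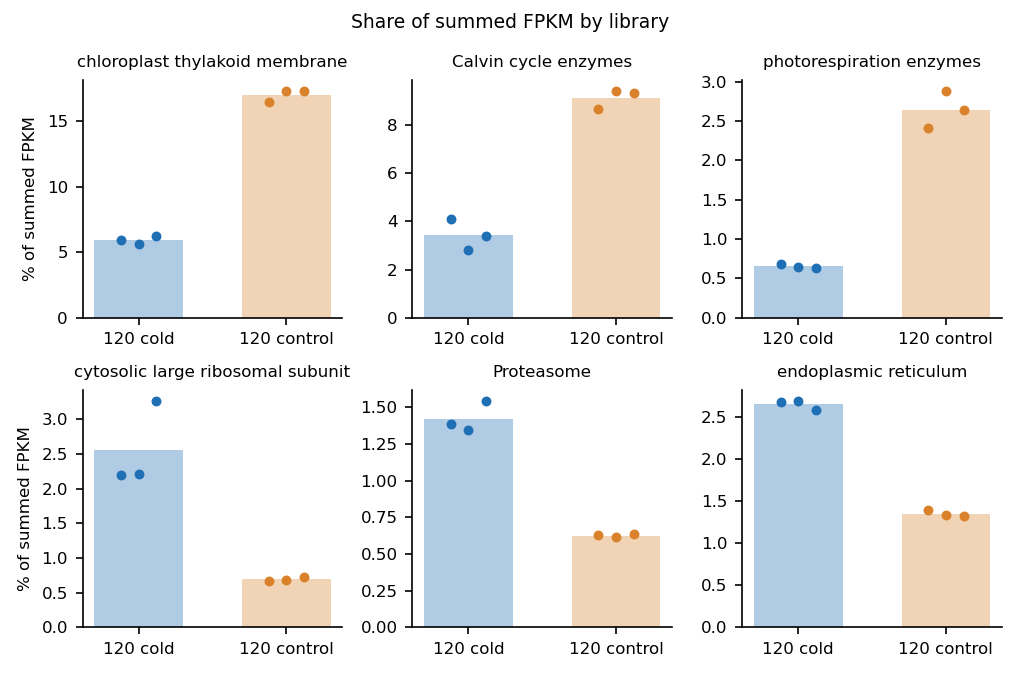
Percent of each library's summed FPKM taken by 6 sets of loci, with the 3 libraries of 120 cold left of the 3 of 120 control in each panel; each point is 1 library and bars are group means, drawn from 0. The thylakoid, Calvin cycle and photorespiration sets are lower in every cold library than in any control library, and the ribosome, proteasome and endoplasmic reticulum sets are higher. Rubisco activase alone makes up much of the Calvin cycle share in the control libraries.

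Several pigment synthesis steps fell. Among chlorophyll synthesis enzymes 1 of 17 tested loci rose and 6 fell. Protochlorophyllide oxidoreductase A (Phvul.005G083700), the light-dependent step, had 7.85, 7.46 and 13.5 FPKM under cold, against 156, 228 and 200.5 FPKM in control (log2 change -4.23, SE 0.214, adjusted p = 8.9e-09). The H subunit of magnesium chelatase (Phvul.001G132200), where the chlorophyll branch leaves the haem branch, had 73, 65.5 and 84.5 FPKM under cold, against 618, 887 and 748 FPKM in control (log2 change -3.31, SE 0.187, adjusted p = 2e-08). Both fell well beyond the spread of either group. Ferrochelatase, the entry to the haem branch, went both ways. Ferrochelatase 2 (Phvul.002G278100) had 6.86, 7.18 and 4.62 FPKM under cold, against 77.2, 88 and 89.6 FPKM in control (log2 change -3.59, SE 0.147, adjusted p = 1.9e-09). Ferrochelatase 1 (Phvul.004G148200) had 102, 102 and 62.8 FPKM under cold, against 11.1, 10.8 and 8.42 FPKM in control (log2 change 2.99, SE 0.186, adjusted p = 4.4e-08). Of the carotenoid enzymes 3 of 22 tested loci rose and 10 fell (median -0.87). Phytoene synthase (Phvul.008G195800), the first committed step, had 7.64, 6.96 and 12 FPKM under cold, against 97, 128 and 110.1 FPKM in control (log2 change -3.54, SE 0.203, adjusted p = 2.3e-08). The violaxanthin de-epoxidase gene NPQ1 (non-photochemical quenching 1, Phvul.006G108200), which makes the zeaxanthin that dissipates excess light, had 8.37, 6.84 and 11.9 FPKM under cold, against 90.9, 154 and 107 FPKM in control (log2 change -3.56, SE 0.206, adjusted p = 2.4e-08). On the side of chlorophyll loss, non-yellowing 1 (Phvul.002G153100), which starts the dismantling of chlorophyll in Arabidopsis and was picked after its values were seen, had 39.7, 39.2 and 34.7 FPKM under cold, against 12.7, 6.13 and 13.9 FPKM in control (log2 change 1.78, SE 0.256, adjusted p = 5e-05). Pheophorbide a oxygenase family loci, also picked after their values were seen, went both ways. A locus of this description had 116, 109 and 104 FPKM under cold, against 47.9, 39.7 and 56.9 FPKM in control. Another had 23.5, 15.2 and 36.2 FPKM under cold, against 140, 182 and 191 FPKM in control. A further locus had 19.2, 12.2 and 30.1 FPKM under cold, against 115, 144 and 132 FPKM in control. The 25 senescence marker loci, 9 of them tested with 6 higher and 2 lower, took 0.112 to 0.151% of the summed FPKM in the cold libraries and 0.101 to 0.119% in the control libraries (exact permutation test, two-sided, p = 0.2). The loci described as senescence-associated gene 12, the defining late marker, stood at 0 to 0.585 FPKM in every library.

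Genes of cytosolic protein synthesis rose. In the KEGG ribosome pathway 181 of 299 tested loci rose and 21 fell, and among its loci described as cytosolic ribosomal proteins 151 of 212 tested loci rose and 9 fell (median 1.91). By GO annotation 94 of 116 loci of the cytosolic large subunit and 56 of 67 of the small subunit rose, and these 2 sets took 2.56% ± 0.611 of the summed FPKM in the cold libraries and 0.696% ± 0.029 in the control libraries, and 1.74% ± 0.53 of the summed FPKM in the cold libraries and 0.463% ± 0.0269 in the control libraries (SD, n = 3 each). Ribosomal protein L32e (Phvul.002G236400) had 123, 127 and 188 FPKM under cold, against 5.95, 9.07 and 7.59 FPKM in control (log2 change 4.09, SE 0.238, adjusted p = 2.6e-08). An S14p/S29e family protein (Phvul.007G043800) had the highest level among called ribosomal loci, with 728, 639.6 and 1292 FPKM under cold, against 362, 326 and 347 FPKM in control (log2 change 1.29, SE 0.227, adjusted p = 0.00025). Cold library 3 was highest at both, and without it the change at Phvul.007G043800 was 0.98, just under the threshold of size. One family member moved the other way: an L1p/L10e family protein (Phvul.011G011500) had 86.1, 74.7 and 95.8 FPKM under cold, against 432, 372 and 517 FPKM in control (log2 change -2.34, SE 0.168, adjusted p = 1.3e-07).

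The factors that build ribosomes in the nucleolus rose with the ribosomal proteins. Of the assembly proteins 15 of 23 tested loci rose and 3 fell (median 2.52). Of loci with the GO term nucleolus 99 of 185 tested loci rose and 9 fell, against 93 rises and 15 falls with median-ratio scaling and 92 and 17 with quantile normalization. Fibrillarin 1 (Phvul.001G057200), which methylates ribosomal RNA, had 63.7, 62.4 and 112 FPKM under cold, against 3.93, 2.69 and 5.38 FPKM in control (log2 change 3.99, SE 0.245, adjusted p = 3.9e-08). The homolog of NOP56 (Phvul.003G209500), a core protein of the same ribonucleoprotein, had 61.3, 55.8 and 90.2 FPKM under cold, against 3.19, 2.27 and 4.02 FPKM in control (log2 change 4.07, SE 0.189, adjusted p = 4.7e-09). The ribosome biogenesis regulatory protein RRS1 (Phvul.003G163900) had 31.2, 31.6 and 51.8 FPKM under cold, against 0.607, 0.647 and 1.25 FPKM in control (log2 change 4.40, SE 0.221, adjusted p = 8.4e-09). Cold library 3 was the highest at each of these 3 loci, and no control library came near the cold range. RNA helicases, which unwind structures that cold stabilises, included 19 rises and 5 falls among 44 tested loci, and the helicase PRH75 (Phvul.007G063700) had 124, 117 and 144 FPKM under cold, against 27.2, 16.4 and 29.2 FPKM in control (log2 change 2.40, SE 0.2, adjusted p = 4.7e-07). Among translation initiation and elongation factors 35 of 79 tested loci rose and 5 fell, against 28 rises and 9 falls with median-ratio scaling and 26 and 10 with quantile normalization. The KEGG spliceosome held 129 rises and 39 falls among 374 loci, a share of rises of 34.5% near the background of 29.7%, against 101 rises and 57 falls with median-ratio scaling and 96 and 61 with quantile normalization.

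Protein turnover and folding genes rose as well. Of the loci described as core or cap subunits of the 26S proteasome, which degrades ubiquitin-tagged proteins, 32 of 38 tested loci rose and 0 fell (median 1.57). The KEGG proteasome pathway took 1.42% ± 0.105 of the summed FPKM in the cold libraries and 0.625% ± 0.0121 in the control libraries (SD, n = 3 each). The beta subunit C1 (Phvul.001G072000) had 163, 168 and 197 FPKM under cold, against 17.9, 14.4 and 19.2 FPKM in control (log2 change 3.29, SE 0.167, adjusted p = 9.2e-09). The base ATPase subunit triple-A 1A (Phvul.010G122200) had 234, 227 and 229 FPKM under cold, against 66.3, 68.7 and 79 FPKM in control (log2 change 1.68, SE 0.125, adjusted p = 1.8e-07). In both, the cold libraries lay close together and above the highest control library. In the KEGG pathway of ubiquitin mediated proteolysis, whose enzymes tag the substrates, 37 of 179 loci rose and 26 fell, a direction that turned with the scaling (32 rises and 36 falls with median-ratio scaling and 28 and 38 with quantile normalization).

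Chaperones rose in most families. Among HSP70 chaperones 8 of 10 tested loci rose and 2 fell, among HSP90 chaperones 5 of 7 tested loci rose and 0 fell, and among small heat shock proteins 6 of 9 tested loci rose and 1 fell, while DnaJ proteins, their co-chaperones, had 21 rises and 19 falls of 80, a balance that turned with the scaling (20 rises and 20 falls with median-ratio scaling and 20 and 22 with quantile normalization). The mitochondrial HSP90 relative HSP89.1 (Phvul.008G285400) had 46.8, 45 and 49.1 FPKM under cold, against 1.13, 0.563 and 2.3 FPKM in control (log2 change 4.43, SE 0.213, adjusted p = 6e-09). The most abundant HSP70 locus of either group, heat shock cognate protein 70-1 (Phvul.007G157200), fell, with 212, 199.6 and 268 FPKM under cold, against 595, 418 and 598 FPKM in control (log2 change -1.23, SE 0.177, adjusted p = 4.7e-05); the change was -0.98 with quantile normalization, just under the threshold of size. Another locus with the same description (Phvul.008G013000) rose, with 56.4, 62.5 and 38 FPKM under cold, against 5.84, 1.83 and 4.43 FPKM in control (log2 change 3.47, SE 0.29, adjusted p = 4.9e-07). Genes of the secretory pathway rose too. Of proteins that fold or translocate others at the endoplasmic reticulum 16 of 32 tested loci rose and 1 fell, and by GO annotation the endoplasmic reticulum took 2.64% ± 0.0614 of the summed FPKM in the cold libraries and 1.35% ± 0.0389 in the control libraries (SD, n = 3 each). A protein disulfide isomerase (PDI-like 1-2, Phvul.009G126800) had 70.9, 73 and 57.7 FPKM under cold, against 3.12, 4.3 and 2.3 FPKM in control (log2 change 4.03, SE 0.165, adjusted p = 1.9e-09). The alpha subunit of the signal recognition particle receptor (Phvul.003G155500), which docks ribosomes at the membrane, had 147, 157 and 94.2 FPKM under cold, against 9.5, 9.81 and 8.72 FPKM in control (log2 change 3.66, SE 0.264, adjusted p = 1.4e-07). The SNARE proteins, which fuse vesicles with their target membranes, had 19 rises and 5 falls of 47, and loci of the Golgi apparatus 205 and 56 of 529.

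Genes of the citrate cycle and of the respiratory bypasses rose more often than they fell, while those of complex I mostly were not called. In the KEGG citrate cycle 25 of 55 tested loci rose and 7 fell, and of loci described as its enzymes 16 of 27 tested loci rose and 1 fell (median 1.47). Citrate synthase (Phvul.005G041600), the entry enzyme, had 140.3, 151 and 119 FPKM under cold, against 14.9, 16.4 and 14.1 FPKM in control (log2 change 3.09, SE 0.142, adjusted p = 4.5e-09). Aconitase 3 (Phvul.005G115100), the next step, had 186, 166 and 148 FPKM under cold, against 27.6, 35.7 and 30.3 FPKM in control (log2 change 2.38, SE 0.175, adjusted p = 1.6e-07). In KEGG oxidative phosphorylation 54 of 125 loci rose and 14 fell, against 41 and 18 with median-ratio scaling and 39 and 19 with quantile normalization. The pathway includes 22 vacuolar proton ATPase loci, which are not respiratory, and without them 46 of 103 rose and 12 fell. Of loci described as mitochondrial complex I subunits, inside or outside that pathway, 1 of 10 tested loci rose and 1 fell, and 0 rose and 3 fell under both scalings and without cold library 3. Of the oxidases and dehydrogenases that pass electrons without pumping protons 7 of 12 tested loci rose and 2 fell. Alternative oxidase 2 (Phvul.002G209200), which hands electrons from ubiquinone straight to oxygen, had 83.2, 81.6 and 45.6 FPKM under cold, against 1.83, 2.52 and 2.31 FPKM in control (log2 change 4.42, SE 0.222, adjusted p = 8.5e-09). Alternative oxidase 1A (Phvul.002G127100) had 43.8, 43.3 and 41.2 FPKM under cold, against 2.25, 1.79 and 7.25 FPKM in control (log2 change 3.38, SE 0.315, adjusted p = 1.2e-06). NAD(P)H dehydrogenase B2 (Phvul.002G221500), which feeds that pool from outside the inner membrane, had 149.5, 145 and 120.0 FPKM under cold, against 14.3, 17.6 and 14.6 FPKM in control (log2 change 3.08, SE 0.216, adjusted p = 1.1e-07). An internal relative, alternative NAD(P)H dehydrogenase 1 (Phvul.002G175300), had 0.7, 1.22 and 1.68 FPKM under cold, against 119, 109 and 118 FPKM in control (log2 change -5.75, SE 0.165, adjusted p = 1.6e-10). Of the 6 tested dehydrogenases of these kinds 3 rose and 2 fell. Alternative NAD(P)H dehydrogenase 2 was among the rises (log2 change 2.99) and dehydrogenase B1 among the falls (-1.63).

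Genes of sugar metabolism changed in both directions. KEGG starch and sucrose metabolism held 71 rises and 81 falls among 279 loci. Of starch synthases and ADP-glucose pyrophosphorylases 0 of 15 tested loci rose and 8 fell. Starch synthase 2 (Phvul.008G036600) had 9.73, 10.4 and 10.4 FPKM under cold, against 85.3, 52.9 and 87.1 FPKM in control (log2 change -2.74, SE 0.189, adjusted p = 9.9e-08). Among amylases and phosphorylases 5 of 20 tested loci rose and 7 fell. The chloroplast beta-amylase (Phvul.003G226900), which releases maltose from leaf starch at night, fell with 48.5, 53.7 and 45.9 FPKM under cold, against 324, 245 and 379 FPKM in control (log2 change -2.63, SE 0.172, adjusted p = 6.7e-08). Beta-amylase 1 (Phvul.004G143600), a stress-linked form in Arabidopsis, rose with 152, 169 and 124 FPKM under cold, against 33.5, 25.2 and 41.1 FPKM in control (log2 change 2.14, SE 0.293, adjusted p = 3.3e-05). Of the sucrose enzymes 3 of 9 tested loci rose and 3 fell. Sucrose phosphate synthase 3F (Phvul.006G031700), a synthetic enzyme, had 6.99, 5.11 and 6.11 FPKM under cold, against 133, 125 and 149 FPKM in control (log2 change -4.28, SE 0.191, adjusted p = 3.4e-09). Invertases, which cleave sucrose, supplied the rises named here. A neutral invertase (Phvul.003G118400) had 30.3, 38.9 and 21.2 FPKM under cold, against 0.958, 0.399 and 0.699 FPKM in control (log2 change 4.18, SE 0.206, adjusted p = 7.4e-09). Cytosolic invertase 2 (Phvul.007G091300) had 32.8, 35.2 and 29.2 FPKM under cold, against 4.76, 2.87 and 3.82 FPKM in control (log2 change 2.81, SE 0.168, adjusted p = 3.1e-08). None of these 6 loci had overlapping groups, but the neutral invertase was under 1 FPKM in each control library and so had to differ.

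Sugar carriers rose more often than they fell. Of 42 sugar transporters 18 rose and 4 fell. Sugar transporter 1 (Phvul.002G221200), a hexose-proton symporter that brings sugar into cells from the wall space, had 375, 392 and 174 FPKM under cold, against 11.6, 9.66 and 12.5 FPKM in control (log2 change 4.60, SE 0.319, adjusted p = 1e-07). A glucose-6-phosphate/phosphate translocator (Phvul.006G151500), which imports hexose phosphate into plastids and is typical of non-green tissue, had 45.5, 44.5 and 46.2 FPKM under cold, against 0, 0.0437 and 0.0758 FPKM in control (log2 change 5.48, SE 0.109, adjusted p = 1.7e-11). An MtN3 family protein (Phvul.002G283900), a family that includes the SWEET sugar exporters, fell with 17.9, 13.8 and 19 FPKM under cold, against 115, 153 and 124 FPKM in control (log2 change -2.88, SE 0.174, adjusted p = 3.4e-08). In raffinose metabolism 3 of 8 tested loci rose and 1 fell. Galactinol synthase 2 at Phvul.007G203400 had 17, 11.2 and 7.39 FPKM under cold, against 2.53, 1.44 and 3.9 FPKM in control (log2 change 1.81, SE 0.429, adjusted p = 0.0022). Seed imbibition 2 (Phvul.001G135200), a raffinose synthase-like protein, had 67.8, 64.9 and 61.8 FPKM under cold, against 0.584, 0.49 and 0.831 FPKM in control (log2 change 5.34, SE 0.121, adjusted p = 3.6e-11), with nearly equal values in the 3 cold libraries.

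Cell wall genes split between relatives. Of 29 expansins and xyloglucan endotransglucosylases, which loosen and re-join wall polymers during growth, 11 rose and 15 fell. Of the 29, 8 were under 1 FPKM in each control library and 8 in each cold library. Those loci passed the filter through 1 group alone and had to differ, so the counts are a description. Xyloglucan endotransglycosylase 6 at MSTRG.11313 had 5.6, 3.81 and 2.3 FPKM under cold, against 440.0, 362 and 374 FPKM in control (log2 change -6.38, SE 0.239, adjusted p = 1e-09). Phvul.003G147400, with the same description, had 96.5, 110.2 and 37.8 FPKM under cold, against 0.378, 0.287 and 0.105 FPKM in control (log2 change 5.90, SE 0.373, adjusted p = 5e-08), and Phvul.003G147500 had 54.8, 44.6 and 21.2 FPKM under cold, against 0.0739, 0.293 and 0.0509 FPKM in control (log2 change 5.08, SE 0.278, adjusted p = 1.6e-08). Reads shared between close copies could have been divided between them, so the split of expression over loci of 1 name is uncertain. Expansin A8 (Phvul.009G142800), an alpha-expansin of growing cells, had 0.513, 0.659 and 0.81 FPKM under cold, against 55, 148 and 70.6 FPKM in control (log2 change -5.67, SE 0.347, adjusted p = 3.9e-08). Expansin-like A1 (Phvul.011G024801), picked after its values were seen, had 93, 119 and 59.2 FPKM under cold, against 3.88, 4.31 and 3.22 FPKM in control (log2 change 4.20, SE 0.283, adjusted p = 8.4e-08). Each of these 5 loci had separate groups. Pectin enzymes and inhibitors had 8 rises and 14 falls of 37, against 7 rises and 15 falls with median-ratio scaling and 5 and 18 with quantile normalization, and a pectate lyase (Phvul.003G207400) had 1.76, 1.73 and 1.41 FPKM under cold, against 132, 296 and 127 FPKM in control (log2 change -6.03, SE 0.307, adjusted p = 9.3e-09). Cellulose synthases and their relatives had 5 rises and 10 falls of 24. Cellulose synthase-like E1 (Phvul.006G058700) rose, with 84.4, 108 and 49.5 FPKM under cold, against 0.0715, 0.0306 and 0 FPKM in control (log2 change 6.23, SE 0.221, adjusted p = 6.8e-10). Aquaporins, the water channels of the plasma membrane and tonoplast, had 4 rises and 10 falls of 22. Of 3 loci named plasma membrane intrinsic protein 1;4, Phvul.002G290400 fell with 13.6, 17.1 and 31.2 FPKM under cold, against 219.6, 509 and 238 FPKM in control (log2 change -3.87, SE 0.377, adjusted p = 1.8e-06), and Phvul.001G241200 rose with 342, 375 and 517 FPKM under cold, against 80.1, 72.9 and 97.3 FPKM in control (log2 change 2.27, SE 0.282, adjusted p = 1.4e-05).

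Desaturases fell where they changed, while JAZ proteins mostly rose. Fatty acid desaturases, which add the double bonds that keep membranes fluid, had 0 rises and 4 falls among 10 tested loci (median -0.81). Desaturase 5 (Phvul.010G156200) had 0.908, 1.74 and 2.8 FPKM under cold, against 15, 18.3 and 15 FPKM in control (log2 change -2.65, SE 0.37, adjusted p = 3.8e-05). Desaturase 8 (Phvul.006G068600), a plastid enzyme described in Arabidopsis as cold-inducible, had 1.81, 1.56 and 2.66 FPKM under cold, against 11.6, 25.7 and 10.9 FPKM in control (log2 change -2.42, SE 0.292, adjusted p = 1.1e-05). Desaturase 6 (Phvul.003G156600) had 25.9, 24.1 and 45.4 FPKM under cold, against 64.9, 78.8 and 72.5 FPKM in control (log2 change -1.21, SE 0.243, adjusted p = 0.00072). One of the 4 falls, zeta-carotene desaturase, belongs to carotenoid synthesis and matched the list by its name. Phospholipases D, which cut membrane lipids to phosphatidic acid, had 4 rises and 1 fall of 10. Phospholipase D alpha 1 (Phvul.010G155000) had 53.2, 69 and 62 FPKM under cold, against 4.08, 5.71 and 4.39 FPKM in control (log2 change 3.45, SE 0.658, adjusted p = 0.00048). Lipoxygenases, which start the path from polyunsaturated fatty acids to jasmonate and other oxylipins, had 4 rises and 4 falls of 10. Lipoxygenase 2 (Phvul.006G016900) had 176, 238 and 77.5 FPKM under cold, against 2.94, 5.99 and 3.55 FPKM in control (log2 change 4.90, SE 0.331, adjusted p = 8.6e-08), whereas lipoxygenase 1 (MSTRG.12139) had 5.27, 3.61 and 10.3 FPKM under cold, against 113, 108 and 150.5 FPKM in control (log2 change -4.16, SE 0.263, adjusted p = 4.9e-08). The JAZ repressors, which are themselves induced by jasmonate, had 5 rises and 1 fall of 8 (median 2.28). JAZ1 (Phvul.009G225300) had 394, 418 and 298 FPKM under cold, against 11.4, 8.45 and 10.1 FPKM in control (log2 change 5.07, SE 0.506, adjusted p = 2.2e-06). Peroxisomal beta-oxidation, which finishes jasmonate synthesis and breaks down fatty acids, had 5 rises and 1 fall of 9, led by acyl-CoA oxidase 2 (MSTRG.2548) with 45, 49.9 and 24.9 FPKM under cold, against 4.94, 1.65 and 5.14 FPKM in control (log2 change 3.10, SE 0.31, adjusted p = 2.3e-06).

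Flavonoid synthesis rose within a mixed phenylpropanoid response. KEGG phenylpropanoid biosynthesis had 45 rises and 39 falls of 146, a balance that turned with the scaling (42 rises and 46 falls with median-ratio scaling and 42 and 54 with quantile normalization). Of the enzymes of the flavonoid branch 10 of 14 tested loci rose and 1 fell (median 1.83), and 6 of the 14 entered the test through the cold group alone. A chalcone-flavanone isomerase (Phvul.009G143100) that was already expressed in control had 96, 115 and 128 FPKM under cold, against 17.4, 23 and 17.7 FPKM in control (log2 change 2.49, SE 0.181, adjusted p = 1.5e-07). A chalcone and stilbene synthase family protein (MSTRG.1528), the first step of the branch, had 15.2, 16.7 and 21.8 FPKM under cold, against 0.0119, 0.0139 and 0.0735 FPKM in control (log2 change 4.18, SE 0.161, adjusted p = 1.3e-09). The isomerase had cold libraries above every control library. The synthase was under 1 FPKM in each control library, so it entered the test through the cold group alone and had to differ. Among lignin-related genes, O-methyltransferase 1 (Phvul.009G258900) fell with 0.723, 0.964 and 1.29 FPKM under cold, against 70, 56.8 and 84 FPKM in control (log2 change -5.15, SE 0.173, adjusted p = 5e-10). A laccase (Phvul.008G112200), which polymerises phenolics, rose with 229, 231 and 327 FPKM under cold, against 0.0451, 0.0958 and 0.052 FPKM in control (log2 change 7.93, SE 0.141, adjusted p = 7.5e-12). KEGG monoterpenoid biosynthesis had 4 rises and 15 falls of 28, but many of its loci are described as other proteins, NPH3 phototropism proteins among them, and pathway labels of the table are used here as given. Polyamine oxidases, which break down spermine and spermidine, had 3 rises and 0 falls of 4. Polyamine oxidase 4 (Phvul.006G085900) had 1046, 1202 and 564 FPKM under cold, against 86.8, 143 and 103 FPKM in control (log2 change 3.03, SE 0.29, adjusted p = 1.6e-06).

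Nitrogen genes moved both ways, often within an enzyme. Of the assimilation enzymes 6 of 19 tested loci rose and 8 fell. Nitrite reductase 1 (Phvul.003G292100), the plastid step, had 6.62, 7.11 and 70.5 FPKM under cold, against 367, 444 and 391 FPKM in control (log2 change -4.61, SE 0.636, adjusted p = 3.5e-05). Nitrate reductase 1 (MSTRG.9448) had 115, 105 and 164 FPKM under cold, against 429.6, 364 and 459.7 FPKM in control (log2 change -1.72, SE 0.193, adjusted p = 6e-06). Cold library 3 stood well above the other cold libraries for nitrite reductase and still below every control library. Glutamate synthase 1, the ferredoxin-dependent plastid form (Phvul.001G123900), picked after its values were seen, had 142, 127 and 93.6 FPKM under cold, against 304, 416 and 379.5 FPKM in control (log2 change -1.60, SE 0.175, adjusted p = 4.9e-06). The NADH-dependent form (Phvul.009G053900) had 84.1, 73.6 and 81.9 FPKM under cold, against 4.3, 7.59 and 3.45 FPKM in control (log2 change 3.78, SE 0.234, adjusted p = 4.1e-08). The groups were separate at both, and the levels of the 2 forms lay closer together under cold. Glutamate dehydrogenase 1, which can release ammonium from glutamate, rose at Phvul.004G080200, with 405, 568 and 305 FPKM under cold, against 9.42, 7.12 and 10.8 FPKM in control (log2 change 5.37, SE 0.245, adjusted p = 4.1e-09). Asparagine synthase 1, which stores nitrogen as asparagine, had at MSTRG.9850 28.1, 33.5 and 155 FPKM under cold, against 4719, 4911 and 4931 FPKM in control (log2 change -6.49, SE 0.484, adjusted p = 1.9e-07). A second locus of that name (Phvul.006G069300) rose, with 156, 108 and 133 FPKM under cold, against 3.93, 0.705 and 5.92 FPKM in control (log2 change 5.09, SE 0.422, adjusted p = 4.5e-07). KEGG alanine, aspartate and glutamate metabolism, which includes both, took 0.901% ± 0.0252 of the summed FPKM in the cold libraries and 3.07% ± 0.111 in the control libraries (SD, n = 3 each).

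**Figure D3:**
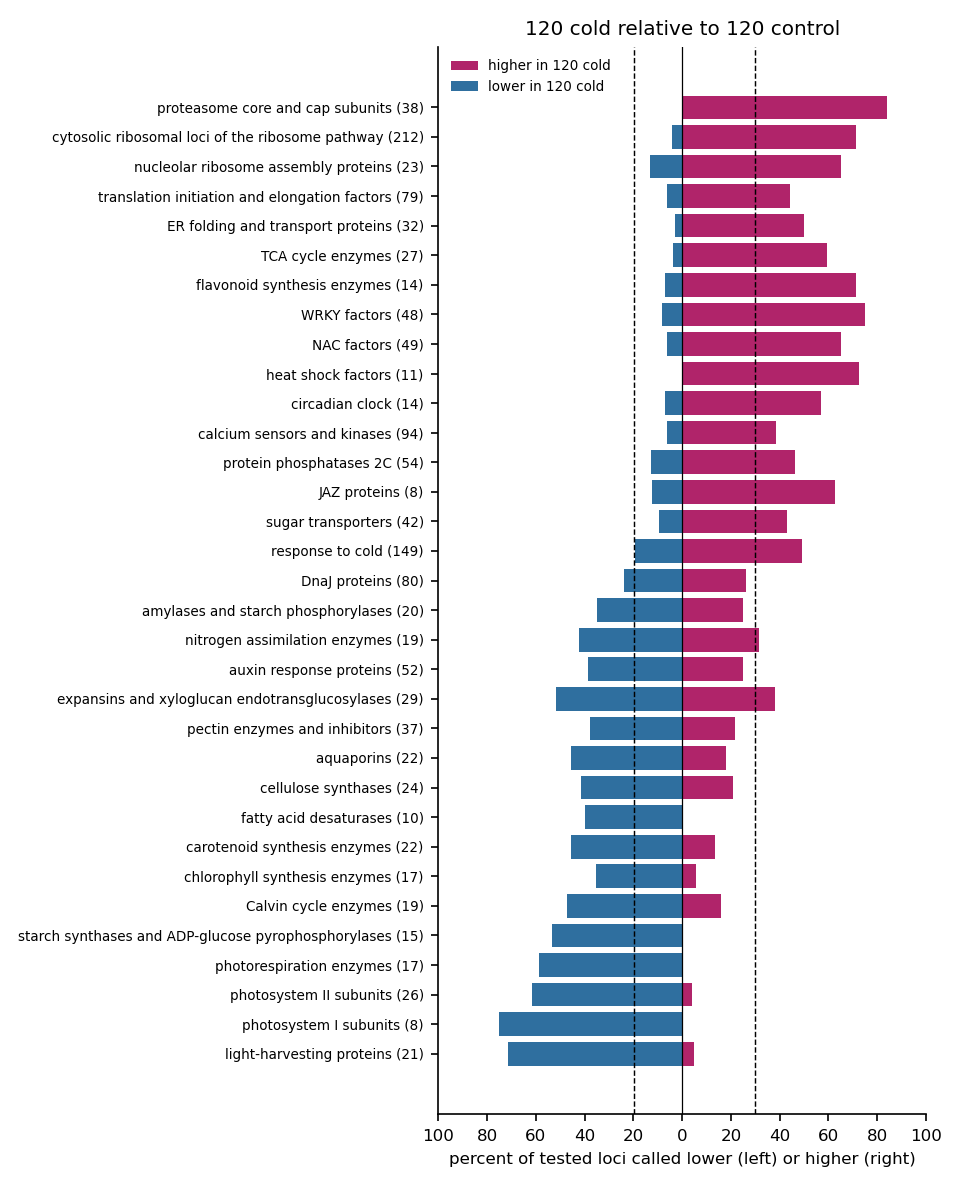
Percent of the tested loci of each group called higher (right of 0) and lower (left of 0) in 120 cold relative to 120 control, with the number of tested loci in parentheses. Dashed lines mark the background over all tested loci, 29.7% higher and 19.9% lower; proteasome, cytosolic ribosome and WRKY loci extend far to the right of it and light-harvesting, photosystem and starch synthesis loci to the left.

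The plot of called shares by group sets these processes side by side. Over the 120 KEGG pathways with at least 10 tested loci, 47 had more than the background share of rises and 69 more than the background share of falls. The median log2 change was below 0 in 57 of the 120.

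Both GIGANTEA loci and 1 of 3 PRR5 loci were near 0 in control and high under cold. Of 14 tested clock loci, a list made from words in the descriptions, 8 rose and 1 fell, with 3 that entered the test through the cold group alone. The wider KEGG pathway of plant circadian rhythm had 33 rises and 28 falls of 114, a share of rises of 28.9% beside 29.7% over all loci. Its balance turned with the scaling (31 rises and 33 falls with median-ratio scaling and 29 and 34 with quantile normalization). GIGANTEA, a light-input component of the clock, rose at both of its loci: Phvul.007G083500 had 139, 136 and 89.8 FPKM under cold, against 0.487, 0.206 and 0.809 FPKM in control (log2 change 6.35, SE 0.187, adjusted p = 1.8e-10), and Phvul.004G088300 had 44.5, 38.4 and 35.1 FPKM under cold, against 0.0322, 0.0228 and 0.0593 FPKM in control (log2 change 5.27, SE 0.119, adjusted p = 3.6e-11). The pseudo-response regulators, which repress morning genes in sequence, rose at PRR5 (Phvul.009G045000) with 108, 132 and 73.5 FPKM under cold, against 0.145, 0.0463 and 0.441 FPKM in control (log2 change 6.42, SE 0.223, adjusted p = 5.9e-10), and at PRR7 (Phvul.007G162500) with 52.6, 50.9 and 37.8 FPKM under cold, against 4.58, 1 and 5.85 FPKM in control (log2 change 3.49, SE 0.348, adjusted p = 2.2e-06). Time for coffee (Phvul.007G055400) had 54.6, 36 and 32.5 FPKM under cold, against 11.4, 15.5 and 12.6 FPKM in control (log2 change 1.54, SE 0.208, adjusted p = 2.8e-05). Another PRR5 locus (MSTRG.12046) had 17.5, 19.7 and 22.3 FPKM under cold, against 16.1, 3.26 and 14.2 FPKM in control, and its log2 change of 1.002 was not called (adjusted p = 0.052). The change was 0.36 without control library 2, and it was called without control library 1 (1.36) or control library 3 (1.28) and among loci with at least 5 FPKM (adjusted p = 0.048). The other called rises were PRR5 at Phvul.009G258300 (log2 change 2.11, SE 0.204, adjusted p = 1.7e-06), PRR7/PRR3 at MSTRG.12776 (log2 change 2.98, SE 0.387, adjusted p = 2e-05) and time for coffee at Phvul.007G172500 (log2 change 1.46, SE 0.19, adjusted p = 2.1e-05). Cycling DOF factors, which act beside the clock, were low, at 0.0103 to 9.89 FPKM over the 6 libraries and 5 tested loci, and 1 of them, factor 3 at Phvul.003G189300, fell with 2.13, 0.161 and 3.62 FPKM under cold, against 9.89, 6.28 and 8.42 FPKM in control (log2 change -1.83, SE 0.395, adjusted p = 0.0012). Clock transcripts cycle over the day, and the hour at which either group was sampled is not given in the sources used here.

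Transcripts of the loci described as CBF/DREB factors were at or near 0. Family members that carry other descriptions are not covered. The 3 loci with that description had 0.173, 0.0746 and 0.0674 FPKM in cold library 1 (Phvul.007G222500, Phvul.011G091400 and Phvul.005G126300) and were listed at 0 in the other 5 libraries, and none passed the filter. Of 15 tested cold-regulated, dehydrin and LEA loci (of 56 described) 12 rose and 1 fell (median 2.95); a locus that passed the filter through 1 group alone had to differ, so this count is a description. A LEA hydroxyproline-rich protein (MSTRG.972) had 223, 66.4 and 104 FPKM under cold, against 0, 0.0126 and 0 FPKM in control (log2 change 6.86, SE 0.508, adjusted p = 1.8e-07). Of loci with the GO term response to cold 73 of 149 rose and 29 fell, shares of 49.0 and 19.5%, and 22 of the 149 entered the test through the cold group alone. The set took 3.67% ± 0.132 of the summed FPKM in the cold libraries and 9.13% ± 0.182 in the control libraries (SD, n = 3 each). Its share of the summed FPKM thus fell while most of its called loci rose. The CAMTA factors, calmodulin-binding activators of CBF genes in Arabidopsis, had 4 rises and 0 falls of 5, and signal responsive 1 (Phvul.002G256500) had 48.7, 44.7 and 25.4 FPKM under cold, against 2.79, 3.08 and 2.8 FPKM in control (log2 change 3.33, SE 0.549, adjusted p = 0.00015).

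Among transcription factor families, WRKY and NAC factors had shares of rises of 75 and 65.3%, beside 29.7% over all loci. Of 48 tested WRKY factors 36 rose and 4 fell (median 2.25), and of 49 NAC factors 32 rose and 3 fell (median 1.64). Of these tested loci 23 WRKY and 12 NAC factors were under 1 FPKM in each control library and entered through the cold group alone. WRKY40 (Phvul.001G042200), a regulator in defence and abscisic acid responses, had 35.6, 31.9 and 81.5 FPKM under cold, against 0.0809, 0.0609 and 0.129 FPKM in control (log2 change 5.41, SE 0.268, adjusted p = 7.5e-09). The most abundant WRKY33 locus (Phvul.008G251300) had 217, 195 and 165 FPKM under cold, against 25.7, 25.7 and 30.5 FPKM in control (log2 change 2.77, SE 0.193, adjusted p = 1.1e-07). The NAC factor at Phvul.005G084500 had 68.5, 84.7 and 59.2 FPKM under cold, against 0.571, 0.279 and 0.707 FPKM in control (log2 change 5.56, SE 0.161, adjusted p = 1.7e-10). In all 3 the groups were far apart, but WRKY40 and this NAC factor are among those that entered through the cold group alone and had to differ. Heat shock factors, regulators of chaperone genes, had 8 rises and 0 falls of 11, at low levels: the highest cold value among the called loci was 20.9 FPKM. Of the 22 described factors 11 were not tested, and 6 of the 11 tested entered through the cold group alone and had to differ. Heat shock factor 4 (Phvul.002G019100) had 6.69, 9.25 and 4.7 FPKM under cold, against 0.18, 0.332 and 0.3 FPKM in control (log2 change 2.59, SE 0.244, adjusted p = 1.4e-06). Heat shock factor A2 (Phvul.009G078300) had 3.32, 3.31 and 5.04 FPKM under cold, against 0.0175, 0.244 and 0.0176 FPKM in control (log2 change 2.15, SE 0.162, adjusted p = 2.1e-07). Other families were mixed. MYB factors had 14 rises and 7 falls of 45 (13 and 10 with quantile normalization), bHLH factors 22 and 22 of 66, AP2/ERF factors 14 and 7 of 30, homeobox factors 22 and 32 of 110, and CONSTANS-like and B-box factors 3 and 6 of 16. Of the tested loci 12 MYB and 8 AP2/ERF factors entered through the cold group alone, and 4 of each through the control group alone.

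Hormone genes changed in both directions, and the balance of KEGG plant hormone signal transduction, with 115 rises and 110 falls of 409, turned with the scaling (102 rises and 118 falls with median-ratio scaling and 101 and 127 with quantile normalization). For abscisic acid, the list of its synthesis enzymes and receptors had 2 rises and 4 falls of 16. The protein phosphatases 2C, a large family in which only some members hold its signalling in check, had 25 rises and 7 falls of 54. Highly ABA-induced PP2C gene 3 (Phvul.001G075400) had 111, 108 and 80.4 FPKM under cold, against 0.918, 0.916 and 0.657 FPKM in control (log2 change 5.77, SE 0.147, adjusted p = 7.1e-11). Loci described as ABA 8'-hydroxylases, which inactivate the hormone, had 3 rises and 1 fall of 4. Of these 4, 1 entered the test through the cold group alone and 1 through the control group alone. The response-element binding factor ABF2 rose at Phvul.009G065500, with 49.8, 44.4 and 40.8 FPKM under cold, against 2.13, 2.44 and 2.39 FPKM in control (log2 change 3.79, SE 0.24, adjusted p = 5.2e-08), and fell at Phvul.003G291800, with 4.22, 5 and 7.98 FPKM under cold, against 32.6, 35 and 35.5 FPKM in control (log2 change -2.43, SE 0.199, adjusted p = 3.9e-07). Among auxin response proteins 13 of 52 tested loci rose and 20 fell. An AUX/IAA repressor (Phvul.005G173000) had 99.8, 115 and 95.1 FPKM under cold, against 0.419, 0.0417 and 0.0714 FPKM in control (log2 change 6.48, SE 0.143, adjusted p = 3.6e-11). IAA8 (Phvul.009G146000) had 11.7, 12.8 and 12.5 FPKM under cold, against 135, 142 and 121 FPKM in control (log2 change -3.32, SE 0.112, adjusted p = 5e-10). Of 19 loci described as gibberellin oxidases 3 were tested, each a 2-oxidase, the type that inactivates growth-promoting gibberellins. All 3 were called higher, and 2 of them entered the test through the cold group alone, so this is a description. The locus Phvul.006G165000 had 5.51, 8.66 and 15.9 FPKM under cold, against 0.46, 0.528 and 0.181 FPKM in control (log2 change 2.88, SE 0.316, adjusted p = 4.9e-06). Ethylene synthesis enzymes had 4 rises and 1 fall of 6, and the more abundant ethylene-forming enzyme (Phvul.008G214200) had 312, 306 and 444 FPKM under cold, against 75.7, 116 and 79.8 FPKM in control (log2 change 1.96, SE 0.213, adjusted p = 4.5e-06). Of the 6 ethylene synthesis loci 3 entered the test through the cold group alone and 1 through the control group alone, so their counts are a description.

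Calcium, receptor and defence genes rose more often than the background. Calcium sensors and kinases had 36 rises and 6 falls of 94, receptor kinases 57 and 32 of 145, and KEGG plant-pathogen interaction 195 and 93 of 504. Of these tested loci 7 calcium, 39 receptor kinase and 78 plant-pathogen loci entered through the cold group alone and had to differ. The counts of the receptor kinases and of the plant-pathogen pathway are therefore descriptions. Calmodulin-like 11 (Phvul.007G278900), a calcium sensor, had 95.7, 109 and 46 FPKM under cold, against 0.214, 0.936 and 0.46 FPKM in control (log2 change 5.72, SE 0.297, adjusted p = 1.1e-08). Calmodulin-domain protein kinase 9 (Phvul.006G043700) had 302, 294 and 190.0 FPKM under cold, against 14, 17.3 and 15.5 FPKM in control (log2 change 3.96, SE 0.405, adjusted p = 2.7e-06). Respiratory burst oxidase homolog B (Phvul.006G090200), which makes superoxide outside the cell, had 187, 174 and 82.7 FPKM under cold, against 0.525, 0.83 and 0.621 FPKM in control (log2 change 6.41, SE 0.273, adjusted p = 2.6e-09). Cold library 3 was the lowest cold library for each of these 3 and still far above control. RPM1-interacting protein 4 family protein (Phvul.006G058100), a hub guarded by resistance proteins, had 898, 736 and 732 FPKM under cold, against 133, 182 and 142 FPKM in control (log2 change 2.37, SE 0.183, adjusted p = 2.5e-07). NBS-LRR resistance proteins themselves had 27 rises and 15 falls of 84, close to the background (25 and 19 with median-ratio scaling, 23 and 20 with quantile normalization). Of the 84, 20 entered through the cold group alone and 12 through the control group alone. Ferric reduction oxidase 7 (Phvul.006G133600), a chloroplast iron reductase in Arabidopsis that the table places in the plant-pathogen pathway, fell with 5.66, 6.04 and 8.08 FPKM under cold, against 629, 607 and 713 FPKM in control (log2 change -6.43, SE 0.229, adjusted p = 6.8e-10).

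Peroxide-removing enzymes moved in opposite directions. Of the catalases and the peroxidases of the glutathione and ascorbate cycle 5 of 24 tested loci rose and 9 fell, against 2 rises and 9 falls with median-ratio scaling and 2 and 9 with quantile normalization. Catalase 2 (Phvul.009G011100), the peroxisomal enzyme that works with photorespiration, had 299, 257 and 281 FPKM under cold, against 2517, 3127 and 2934 FPKM in control (log2 change -3.35, SE 0.188, adjusted p = 1.9e-08). Glutathione peroxidase 6 (Phvul.002G288700), found in mitochondria and cytosol in Arabidopsis, had 2313, 2553 and 1539 FPKM under cold, against 102, 78.1 and 90.7 FPKM in control (log2 change 4.52, SE 0.307, adjusted p = 8.9e-08) and was among the 10 most abundant loci of the cold group. By FPKM, which is per length, glutathione peroxidase 6 was above catalase 2 in each cold library and below it in each control library. The cytosolic ascorbate peroxidase 1 (Phvul.011G071300) rose with 325, 269.6 and 347 FPKM under cold, against 59.4, 59.2 and 69.3 FPKM in control (log2 change 2.30, SE 0.172, adjusted p = 1.9e-07). Monodehydroascorbate reductase 6 (Phvul.002G292800), an organellar form, fell with 8.56, 14.8 and 79.8 FPKM under cold, against 223, 173 and 213 FPKM in control (log2 change -3.14, SE 0.568, adjusted p = 0.00032). Cold library 3 was several times above the other cold libraries at the reductase. Glutathione S-transferases had 9 rises and 3 falls of 27, against 9 rises and 6 falls with median-ratio scaling and 9 and 6 with quantile normalization, and class III peroxidases 10 and 8 of 23, a balance that turned with quantile normalization (9 rises and 8 falls with median-ratio scaling and 9 and 10 with quantile normalization). Of the 23 class III peroxidases 9 entered the test through the cold group alone and 5 through the control group alone, so their counts are a description.

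Genes of DNA replication and division were near the background or below it. KEGG DNA replication had 21 rises and 11 falls of 73 (17 and 14 with median-ratio scaling, 17 and 15 with quantile normalization), cyclins and cell-cycle kinases 5 and 5 of 33, and histones 2 and 0 of 11. The dividing-cell marker list took 0.22 to 0.264% of the summed FPKM in the cold libraries and 0.201 to 0.264% in the control libraries (exact permutation test, two-sided, p = 0.9). Pentatricopeptide repeat proteins, which edit and stabilise organelle RNA, had 8 rises and 13 falls of 49.

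Some loci that share a description moved in opposite directions. Of 1950 descriptions carried by at least 2 tested loci, 401 (20.6%) included a called rise and a called fall, 712 rises only, 424 falls only and 413 no call. Of 1111 KEGG ortholog entries with at least 2 tested loci, 369 (33.2%) included both. These counts are a description, since the share that unrelated loci would give, with 29.7% rises and 19.9% falls over all loci, was not computed. NADP-malic enzyme 3 (Phvul.009G111500), which makes NADPH in the cytosol, had 142, 174 and 72.5 FPKM under cold, against 0.903, 1.22 and 1.12 FPKM in control (log2 change 5.88, SE 0.249, adjusted p = 2.5e-09), while NADP-malic enzyme 4 (Phvul.004G170800) had 6.05, 7.33 and 7.16 FPKM under cold, against 104, 117 and 112 FPKM in control (log2 change -3.84, SE 0.109, adjusted p = 1.4e-10). Phosphoenolpyruvate carboxylase 3 (Phvul.011G160200), which refills the citrate cycle, had 158, 155 and 115 FPKM under cold, against 28.9, 30.2 and 25.5 FPKM in control (log2 change 2.29, SE 0.153, adjusted p = 8.1e-08), while carboxylase 2 (Phvul.005G095300) had 5.6, 6.92 and 23.8 FPKM under cold, against 78.7, 46.8 and 64.8 FPKM in control (log2 change -2.53, SE 0.412, adjusted p = 0.00013). Glutamate dehydrogenase 1 at Phvul.001G110500 had 6.38, 6.03 and 7.38 FPKM under cold, against 36.7, 50.6 and 35.8 FPKM in control (log2 change -2.45, SE 0.173, adjusted p = 1.2e-07), against the rise of its namesake. Cytochrome P450 82C4, an oxygenase family, rose at Phvul.004G021200 with 37.8, 41.2 and 39.5 FPKM under cold, against 0.275, 0.318 and 0.44 FPKM in control (log2 change 4.92, SE 0.143, adjusted p = 1.7e-10), and fell at Phvul.004G021300 with 0.258, 0.24 and 0.062 FPKM under cold, against 23.9, 48.2 and 23.2 FPKM in control (log2 change -4.71, SE 0.367, adjusted p = 2.7e-07). These pairings, and both carboxylase loci, were chosen after their values were seen. In each locus no library of the cold group lay within the range of the control group. Both cytochrome P450 loci passed the filter through 1 group alone, being under 1 FPKM in each library of the other, and so had to differ. The plot of paired loci gives the 6 libraries for 8 such pairs.

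**Figure D4:**
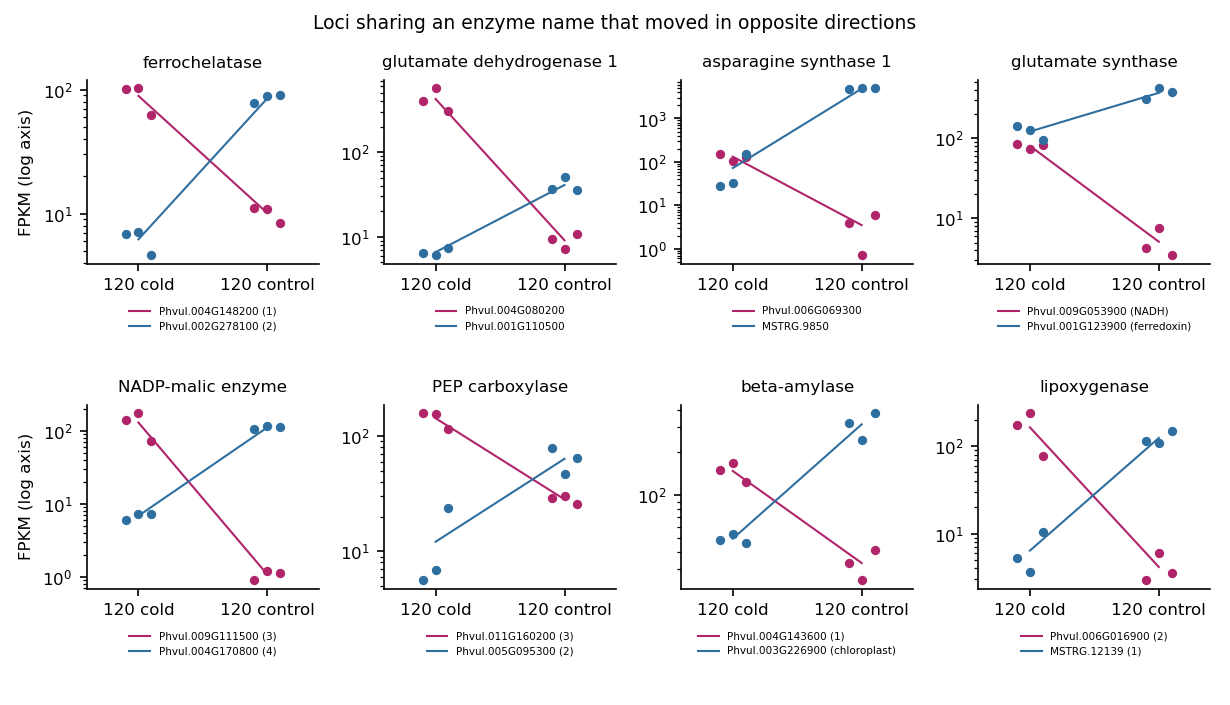
FPKM (log axis) of 8 pairs of loci that carry the same or a closely related enzyme name, with the 3 libraries of 120 cold on the left and the 3 of 120 control on the right of each panel; each point is 1 library and lines join group means. In every panel 1 locus was called higher and the other lower under cold.

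The response of 120 was shared with that of 093 at most called loci and differed in size or direction at a part of them. The difference of the responses, 120 minus 093, was tested by the interaction contrast of the same fit with the same thresholds. It was called at 2574 of 13550 loci (19.0%), positive at 851 (6.28%) and negative at 1723 (12.7%), with a median over all loci of -0.22. Median-ratio scaling gave 1206 positive and 1116 negative and quantile normalization 1144 and 1146, so the excess of negative differences depended on the scaling. Of the 6718 loci called in 120, 1609 (24.0%) had a called difference: 567 rose in 120 with a positive difference and 766 fell with a negative one, while 234 rose and 42 fell with the opposite sign of difference. The sign alone does not say which variety moved further, since some of these loci moved the opposite way in 093. In 4860 loci the call in 120 was shared in direction by 093, and in 35 the 2 varieties were called in opposite directions.

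The loci named next are among the 6 described ones called in 120 with the largest positive differences. A GroES-like zinc-binding dehydrogenase (Phvul.011G018000) had, in 120, 11.1, 16.3 and 8.33 FPKM under cold, against 0.751, 1.03 and 0.793 FPKM in control, a log2 change of 2.75. Its means were 1.53 ± 0.37 FPKM in 093 cold and 14.8 ± 5.09 FPKM in 093 control (SD, n = 3 each), a log2 change of -2.60 (difference 5.35, SE 0.356, adjusted p = 4.4e-06), so it rose in 120 and fell in 093. WRKY33 at Phvul.010G062500 had, in 120, 53.5, 35.4 and 34.3 FPKM under cold, against 0.125, 0.0463 and 0.0804 FPKM in control, a log2 change of 5.25. Its means were 0.629 ± 0.273 FPKM in 093 cold and 0.44 ± 0.555 FPKM in 093 control (SD, n = 3 each), a log2 change of 0.23 (difference 5.02, SE 0.36, adjusted p = 6.7e-06). A divalent ion symporter (Phvul.004G111900) had, in 120, 63.7, 53 and 38.4 FPKM under cold, against 0.898, 0.628 and 0.473 FPKM in control, with log2 changes of 4.96 in 120 and 0.13 in 093 (difference 4.84, SE 0.332, adjusted p = 5.2e-06). The alpha-crystallin domain protein 32.1 (Phvul.008G264700), a peroxisomal small heat shock protein in Arabidopsis, had, in 120, 89.8, 72 and 57.5 FPKM under cold, against 5.98, 4.95 and 8.51 FPKM in control, with log2 changes of 3.31 in 120 and -1.13 in 093 (difference 4.45, SE 0.328, adjusted p = 8e-06). At these 4 loci each cold library of 120 stood above each control library of 120. Of the clock loci named above, PRR5 and GIGANTEA rose further in 120, with log2 changes of 6.42 in 120 and 2.41 in 093 at PRR5 (Phvul.009G045000; difference 4.00, SE 0.316, adjusted p = 1.2e-05) and of 6.35 and 2.38 at GIGANTEA (Phvul.007G083500; difference 3.96, SE 0.264, adjusted p = 4.4e-06). These clock loci, WRKY33 and the ion symporter were under 1 FPKM in each control library of 120. They entered the test through its cold group alone, which favours a positive difference.

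The loci named next are among the 6 described ones called in 120 with the largest negative differences, and the first 2 of them fell in 120 and rose in 093. A HCO3- transporter family protein (Phvul.005G174400) had, in 120, 15.6, 15.4 and 14 FPKM under cold, against 64.5, 46.5 and 53.6 FPKM in control, a log2 change of -1.79. Its means were 12.1 ± 0.538 FPKM in 093 cold and 0.446 ± 0.116 FPKM in 093 control (SD, n = 3 each), a log2 change of 3.18 (difference -4.98, SE 0.19, adjusted p = 1.4e-07). A pyridoxal phosphate phosphatase-related protein (Phvul.010G141200) had, in 120, 4.99, 5.2 and 2.66 FPKM under cold, against 28.2, 32.3 and 25.5 FPKM in control, with log2 changes of -2.52 in 120 and 2.74 in 093 (difference -5.26, SE 0.273, adjusted p = 9.2e-07). A peroxidase superfamily protein (Phvul.008G249500) had, in 120, 0.662, 0.775 and 2.93 FPKM under cold, against 81.9, 158 and 115 FPKM in control, with log2 changes of -5.67 in 120 and -1.04 in 093 (difference -4.63, SE 0.668, adjusted p = 0.00055). Its cold library 3 stood above the other cold libraries of 120 and far below control. An MLP-like protein (Phvul.009G252400), of the major latex protein family, was called higher under cold in both varieties. In 120 it had 422, 278 and 188 FPKM under cold, against 71.9, 264 and 107 FPKM in control, where the groups overlapped, and a log2 change of 1.14 (adjusted p = 0.019). That call was lost in a fit of the 6 libraries of 120 alone (adjusted p = 0.069), with median-ratio scaling (log2 change 0.90), and without cold library 1 (0.85), control library 1 (0.74) or control library 3 (1.02, adjusted p = 0.062). Its means were 81.3 ± 6.39 FPKM in 093 cold and 0.0406 ± 0.0199 FPKM in 093 control (SD, n = 3 each), a log2 change of 6.30 (difference -5.16, SE 0.552, adjusted p = 0.0001).

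By group, the called differences were unevenly placed. The counts below are read against 6.28% positive and 12.7% negative over all loci, whose balance was lost with the scaling; both scalings moved the median difference, by 0.23 and 0.19. Aquaporins had 1 positive and 12 negative differences of 22, cellulose synthases 3 positive and 12 negative differences of 24, ABC transporters 2 positive and 24 negative differences of 74, and homeobox factors 6 positive and 32 negative differences of 110. WRKY factors had 10 positive and 3 negative differences of 48, against 16 and 1 with each scaling and 15 and 2 without cold library 3 of 120. Heat shock factors had 4 positive and 0 negative differences of 11. The filter used the libraries of 120 alone, so loci that entered through 120 cold, 23 of these WRKY and 6 of these heat shock factors, are favoured towards a positive difference, and both counts are descriptions. Nitrogen assimilation enzymes had 1 positive and 9 negative differences of 19, photorespiration enzymes 1 positive and 7 negative differences of 17, and auxin response proteins 4 positive and 19 negative differences of 52. Cytosolic ribosomal loci had 1 positive and 4 negative differences of 212, a direction that turned with the scaling (7 positive and 1 negative with median-ratio scaling, 4 and 1 with quantile normalization), and 1 positive and 16 negative without cold library 3 of 120. The other groups named here kept the side on which most of their called differences lay under both scalings; homeobox factors had 18 and 19 negative differences under them, and ABC transporters 17 and 15. The difference of the responses was -2.04 (SE 0.273, adjusted p = 0.00036) at nitrate reductase 1 (MSTRG.9448), -1.60 (SE 0.344, adjusted p = 0.0052) at desaturase 6 (Phvul.003G156600) and -1.21 (SE 0.413, adjusted p = 0.043) at desaturase 8 (Phvul.006G068600), with log2 changes of 0.32, 0.39 and -1.21 in 093; that at desaturase 8 was not called with median-ratio scaling (difference -1.05, adjusted p = 0.06).

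**Figure D5:**
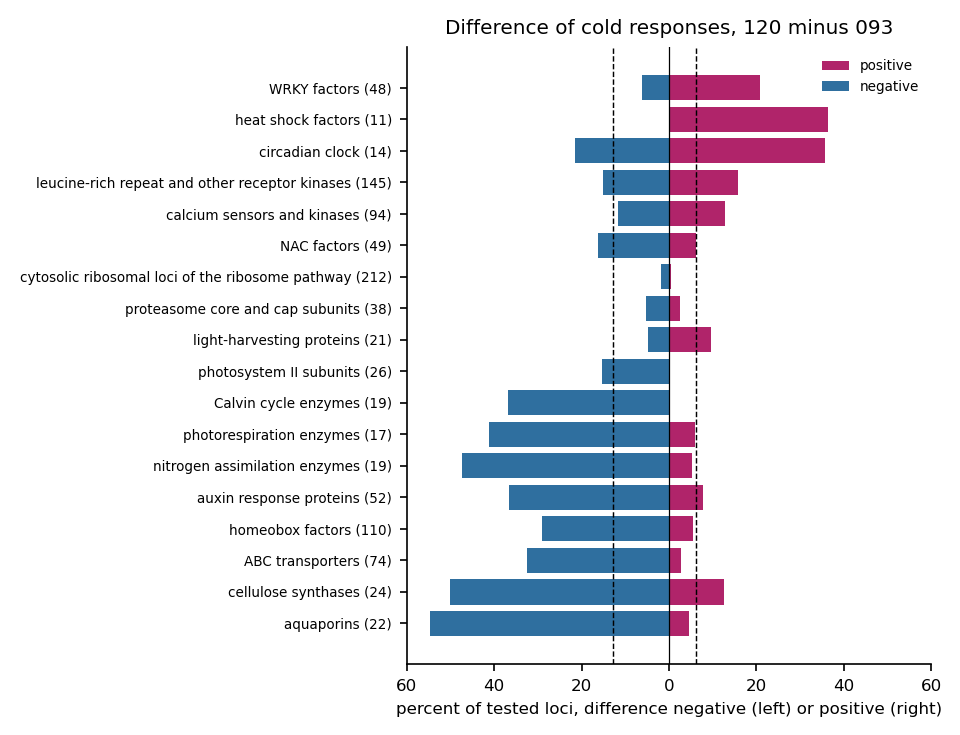
Percent of the tested loci of each group with a called difference of the cold responses, 120 minus 093, positive to the right and negative to the left, with the number of tested loci in parentheses; dashed lines mark 6.28% and 12.7% over all loci. WRKY factors lie to the right of the background and aquaporins, cellulose synthases and ABC transporters to the left.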

How the data were processed

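RNA of true leaves was measured by RNA-seq in 12 libraries, 3 for each of 120 cold, 120 control, 093 cold and 093 control, grouped by the variety and treatment the labels give. Per the labels' protocols, poly(A) RNA was made into strand-marked (dUTP) libraries and sequenced as paired ends on a NovaSeq instrument. The authors deposited 1 table of FPKM per locus and library, per the file headers; the submitters' processing notes name cutadapt 1.9, HISAT2 2.0.4, StringTie 1.3.4d, DESeq2 and edgeR, without saying what each was used for. The genome build and annotation are not given in the sources used here, so no coordinates are given. Loci called MSTRG have no gene model name in the table, and some carry the descriptions of more than 1 gene. Whether strand was used in counting is not given either, so overlapping antisense genes are uncertain.

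FPKM carry no read totals, so the depth behind a value is unknown and no counting interval is given. Values were analysed as log2(FPKM + 1), a pseudocount of 1 that understates the change of low loci; a fold change is on that scale. Loci with at least 1 FPKM in 3 or more of the 6 libraries of 120 were tested with limma 3.58.1 in R 4.3.3 (4 group means over 12 libraries, variance trend on level, two-sided moderated test, Benjamini-Hochberg adjustment over 13550 loci). A call needed an adjusted p under 0.05 and a log2 change of at least 1 in size. The difference of the responses was the interaction contrast of that fit. The procedure was checked on simulated data.

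KEGG pathways, GO terms and words in the descriptions, all from the deposited table, defined the groups, whose counts carry no test of their own. Some loci are placed in a KEGG pathway while their description names another protein. Shares of summed FPKM were compared by exact permutation over libraries. Alternatives were another pseudocount, 2 other filters, 2 scalings, the 6 libraries of 120 alone, no variance trend, a replicate block and leaving out each library. The members, lists and tests were chosen with earlier results of these data known.

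Loci were eligible to be named if they were among the 15 largest called rises or falls with a description and separate groups; among the 4 largest changes or the 2 highest levels of the called loci of a group; among the 10 most abundant loci of either group; among the 6 largest positive or negative called differences with a description; or in the CBF/DREB, clock or heat shock factor lists. Others are said to be picked after their values were seen. Search of promoters for motifs was not run and no sequences were used here.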

Additional observations from a re-analysis of the deposited data

Results flagged for a closer look

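The cold response differed between the varieties at 64 of the 138 named loci that were tested, by limma's interaction contrast with the thresholds of the report: the difference, 120 minus 093, was positive at 25 and negative at 39. Over all tested loci the share called is 19.0%, and the named loci were chosen mainly for large responses in 120. With median-ratio scaling 51 of the 64 were still called in the same direction, with quantile normalization 56, and without cold library 3 of 120 61; none changed sign in these 3 settings. Values below are these differences on the log2(FPKM + 1) scale, each with an adjusted p under 0.05. Groups of 3 libraries are too small to look for single outlying libraries.

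In carbon fixation and photorespiration each called difference of a named locus was negative: -1.26 at Rubisco activase (Phvul.001G234300), -1.46 at sedoheptulose-bisphosphatase (Phvul.001G240200) and -1.80 at transketolase (Phvul.007G006600). It was -1.10 at fructose-bisphosphate aldolase 2 (MSTRG.12572), -1.14 at hydroxypyruvate reductase (Phvul.007G019300) and -1.13 at glycine decarboxylase P-protein 2 (Phvul.001G035500). Those of pigment synthesis were negative too, with -1.90 at the H subunit of magnesium chelatase (Phvul.001G132200), -1.13 at ferrochelatase 2 (Phvul.002G278100) and -1.96 at phytoene synthase (Phvul.008G195800). These loci fell in both varieties. With median-ratio scaling 5 of the 9 differences were not called, those at Rubisco activase (-0.98, adjusted p = 0.061), aldolase 2 (-0.83), hydroxypyruvate reductase (-0.87), glycine decarboxylase (-0.86) and ferrochelatase 2 (-0.86), and the last 3 of these were not called with quantile normalization either (-0.72, -0.82 and -0.80).

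Among chaperones and mitochondrial enzymes the difference was -1.03 at HSP89.1 (Phvul.008G285400), -1.86 at heat shock cognate protein 70-1 (Phvul.007G157200), 1.65 at PDI-like 1-2 (Phvul.009G126800) and 4.45 at alpha-crystallin domain 32.1 (Phvul.008G264700). It was -1.05 at aconitase 3 (Phvul.005G115100) and -1.37 at alternative NAD(P)H dehydrogenase 1 (Phvul.002G175300). With median-ratio scaling and with quantile normalization neither HSP89.1 (-0.88, adjusted p = 0.052, and -0.80, adjusted p = 0.069) nor aconitase 3 (-0.79 and -0.94) was called. For sugars it was -2.24 at the chloroplast beta-amylase (Phvul.003G226900), -1.93 at sucrose phosphate synthase 3F (Phvul.006G031700), 1.27 at sugar transporter 1 (Phvul.002G221200) and -2.55 at the MtN3 family protein (Phvul.002G283900).

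In the cell wall and at the membrane, positive differences were found at xyloglucan endotransglycosylase 6 (2.06 at Phvul.003G147400 and 1.80 at Phvul.003G147500), expansin-like A1 (1.53, Phvul.011G024801), cellulose synthase-like E1 (1.09, Phvul.006G058700) and acyl-CoA oxidase 2 (1.81, MSTRG.2548). Negative ones were found at expansin A8 (-1.50, Phvul.009G142800), the pectate lyase (-1.91, Phvul.003G207400) and plasma membrane intrinsic protein 1;4 (-1.82, Phvul.002G290400). They were also found at desaturases 5, 8 and 6 (-2.23 at Phvul.010G156200, -1.21 at Phvul.006G068600 and -1.60 at Phvul.003G156600), lipoxygenase 1 (-4.38, MSTRG.12139) and O-methyltransferase 1 (-1.01, Phvul.009G258900). With median-ratio scaling expansin A8 (-1.21, adjusted p = 0.065), desaturase 8 (-1.05, adjusted p = 0.06) and O-methyltransferase 1 (-0.77) were not called, the last also not with quantile normalization (-0.83).

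In nitrogen and organic acid metabolism the difference was -2.96 at nitrite reductase 1 (Phvul.003G292100), -2.04 at nitrate reductase 1 (MSTRG.9448) and -1.63 at glutamate synthase 1 (Phvul.001G123900). It was -2.89 and 2.77 at the asparagine synthase 1 loci MSTRG.9850 and Phvul.006G069300, -1.25 at glutamate dehydrogenase 1 (Phvul.001G110500) and -1.48 at NADP-malic enzyme 4 (Phvul.004G170800). Glutamate dehydrogenase 1 was not called with median-ratio scaling (-0.994).

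Among clock and clock-associated loci it was 3.96 and 2.24 at the GIGANTEA loci Phvul.007G083500 and Phvul.004G088300, 4.00 at PRR5 (Phvul.009G045000), 3.11 at PRR7 (Phvul.007G162500), 4.07 at PRR7/PRR3 (MSTRG.12776), -2.18 at time for coffee (Phvul.007G172500) and -2.45 at cycling DOF factor 3 (Phvul.003G189300). Whether the hour of sampling differed between varieties is not given in the sources used here, and its part in these differences was not tested.

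In regulation and defence, positive differences were 5.02 at WRKY33 (Phvul.010G062500), 1.66 at heat shock factor 4 (Phvul.002G019100) and 1.91 at heat shock factor A2 (Phvul.009G078300). Others were 1.63 at PP2C gene 3 (Phvul.001G075400), 1.27 at the AUX/IAA repressor (Phvul.005G173000), 1.56 at calmodulin-like 11 (Phvul.007G278900), 1.47 at respiratory burst oxidase homolog B (Phvul.006G090200), 2.83 at the LEA hydroxyproline-rich protein (MSTRG.972) and 3.85 at the PLAC8 family protein (Phvul.005G169200). Negative ones were -1.20 at ABF2 (Phvul.003G291800), -1.001 at the ethylene-forming enzyme (Phvul.008G214200) and -2.65 at ferric reduction oxidase 7 (Phvul.006G133600). ABF2 (-0.98 and -0.9992) and the ethylene-forming enzyme (-0.73, adjusted p = 0.064, and -0.77, adjusted p = 0.058) were not called with median-ratio scaling or with quantile normalization. Each of these loci with a positive difference was under 1 FPKM in each control library of 120. They entered the test through the cold group of 120 alone, which favours a positive difference.

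The remaining loci were named in the report for the size of their differences: 5.35 at the GroES-like dehydrogenase (Phvul.011G018000), 4.84 at the divalent ion symporter (Phvul.004G111900) and -4.98 at the HCO3- transporter (Phvul.005G174400). The others were -5.26 at the pyridoxal phosphate phosphatase-related protein (Phvul.010G141200), -5.16 at the MLP-like protein (Phvul.009G252400) and -4.63 at the peroxidase (Phvul.008G249500).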

How the results depend on the processing

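The count of negative differences, 1723, became 1116 with median-ratio scaling and 1146 with quantile normalization, while positive ones went to 1206 and 1144 beside 851. The median difference over all tested loci was -0.22, against 0.0071 and -0.029 with these scalings. The other counts over all tested loci stayed within 1.5 times; lists whose counts moved further or changed balance are given with their values in the report. Called rises and falls were 4399 and 3092 with a pseudocount of 0.1, 4114 and 2728 of 21247 loci with no filter, 3180 and 2086 of 9755 loci at 5 FPKM or more, 4022 and 2689 in the 6 libraries of 120 alone, and 4022 and 2696 with no variance trend. Leaving out each library in turn gave 3978 to 4045 rises and 2622 to 2737 falls, and 713 to 1008 positive and 1438 to 1960 negative differences. Where that left 2 libraries in a group, the spread was pooled with the other groups. Shares of summed FPKM moved by less than 1 SD when only tested loci were summed.

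Pairing by replicate number was checked: deviations of same-numbered cold and control libraries of 120 correlated at -0.01, -0.11 and -0.01. No cold library correlated best with the control library of its own number. With 3 libraries in each group, these values cannot show what same-numbered libraries share. With the replicate block there were 4025 rises, 2700 falls, 830 positive and 1651 negative differences.

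The share of rises was above that of all loci in 47 of 120 KEGG pathways (43 and 48 with the scalings) and 23 of 41 description lists (24 and 23). Without cold library 3, an alternative chosen after seeing the data, these were 50 and 24. Of 138 named loci, quantile normalization ended 3 calls and made 1, and median-ratio scaling ended 1; those loci are named in the report. The replicate block ended none and made 1, at PRR5 (MSTRG.12046, adjusted p = 0.035). At 5 FPKM or more, 2 named loci were not tested.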
